A study of Homo sapiens with 4 samples.

Results

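The genes described here are 34 members of cholesterol and fatty acid synthesis: the enzymes that build cholesterol from acetyl-CoA, the proteins that control the sterol regulatory element-binding proteins (SREBPs), carriers and exporters of cholesterol, and the enzymes that make and desaturate fatty acids. They were chosen by name from the annotation of a count table of 63241 genes, and each name matched 1 row. Of the 34, 33 passed the filter on low counts and were tested among 18781 genes. ABCG1, a cholesterol exporter, did not pass, with 0, 0, 0 and 1 reads in the 4 libraries, where the limit that a count of 0 allows is 3 reads, or 0.0915 to 0.109 CPM (counts scaled to the same library total), for counting error only.

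The libraries came from FT190, a human epithelial line that the labels call ovarian and that derives from immortalised secretory cells of the fallopian tube. The 2 control libraries (Ctrl, replicates 1 and 2) came from cells with the PLKO vector, and the 2 shSMARCA4 libraries (replicates 1 and 2) from cells with 1 hairpin RNA directed at SMARCA4, the ATPase of SWI/SNF chromatin remodelling complexes. The genotype label is wild type for all 4, all were grown in RPMI medium with serum. No source used here says whether replicates were separate cultures, so each p-value reflects the spread of these libraries alone, possibly a technical one.

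Cells make cholesterol through a long chain of enzymes of the endoplasmic reticulum and cytosol, and most of the genes in this chain are targets of SREBF2, which encodes SREBP2. SREBF1 encodes the related factor that acts mainly on fatty acid genes. When membrane cholesterol is high, INSIG proteins hold the escort protein SCAP and its SREBP cargo in the endoplasmic reticulum; when it is low, SCAP carries the SREBP to the Golgi, where proteases free the active factor. Oxysterols act on a second arm, the LXR receptors, which raise exporters such as ABCA1 and ABCG1, the ubiquitin ligase MYLIP and SREBF1.

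Total counts ranged from 27137414 to 33641343 per library, with both shSMARCA4 libraries below both controls. SMARCA4 stood at 171 and 162 CPM in control libraries against 34.0 and 36.3 CPM with the hairpin, which fits the labels (log2 fold change -2.24, SE 0.052). Among markers, the keratin KRT7 (631 and 561 CPM in control libraries) and the tubal factor PAX8 (57.4 and 59.8 CPM) were present, while the epithelial genes EPCAM, KRT19 and CLDN3 lay under 1 CPM in every library, as did 4 of 7 tubal secretory markers (OVGP1, ESR1, PGR and MUC16) and 5 of 6 ciliated markers in the table. The 7 endothelial markers lay under 1 CPM throughout, as did 6 of 7 adipocyte markers and 7 of 10 immune markers. The summed level of 12 fibroblast and smooth muscle markers was 2610 and 2620 CPM in control libraries against 1790 and 1930 CPM. Of the 12, 7 were called lower. Most of this sum was COL1A1, at 1970 and 2000 CPM in control libraries against 1540 and 1660 CPM. COL1A2, COL3A1, DCN and DES lay under 1 CPM in every library. The summed level of 9 epithelial markers was 1800 and 1700 CPM against 1190 and 1200 CPM, with 5 called lower. The part of these shifts in the results that follow was not tested. In bulk RNA, fewer cells of a type and less RNA per cell cannot be told apart.

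Depletion of SMARCA4 went with small changes in both directions across the members. Of 33 tested, 14 fell and 5 rose by edgeR's quasi-likelihood test (adjusted p under 0.05), against 15.8% of all genes tested that were lower, 13.8% that were higher and 29.7% called in either direction. The members' shares were 42.4% lower and 15.2% higher. All genes tested were not matched to the members for level, and standard errors were larger in members of low level, so these shares are not like for like. Without shSMARCA4 replicate 1 the counts were 10 lower and 3 higher, and without control replicate 1 they were 14 lower and 8 higher. The members' median log2 fold change was -0.02 and that of all genes tested 0.00; scaled by library totals alone, the members' median was 0.03. Of all called genes 46.6% were higher, a share that became 59.5% with library totals alone. Control and shSMARCA4 values did not overlap in 24 of 33 members (72.7%), against 65.9% of all genes tested. The called members had a median absolute log2 change of 0.29, below the 0.37 of all called genes.

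**Figure D1:**
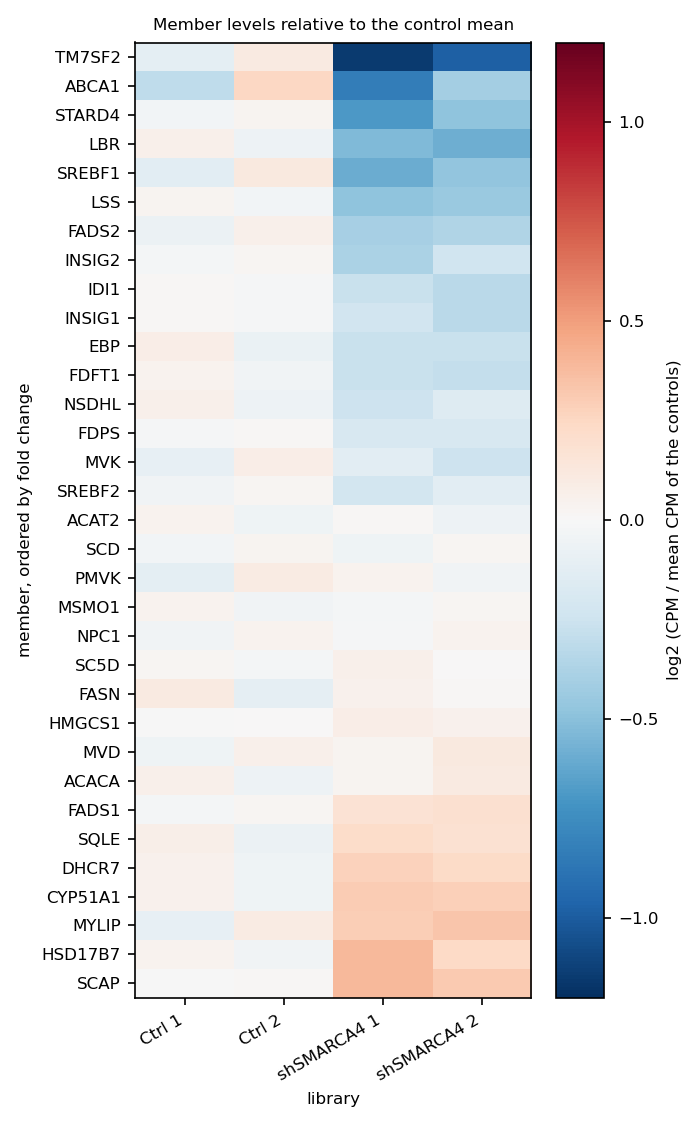
Level of each of the 33 tested members in each library, as log2 of CPM over the mean CPM of the 2 controls (colour), with members ordered from the strongest fall to the strongest rise. TM7SF2, STARD4, LBR, SREBF1 and LSS are lower in both shSMARCA4 libraries and SCAP, CYP51A1 and DHCR7 higher in both, while the 2 controls differ visibly in ABCA1.

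Upstream stretches of members that fell are shown next, since the SREBPs act through short elements there. The RefSeq promoter table (GRCh38.p14) held 29 of the 34 members, and in 25 of these the RefSeq start site lay within 100 bases of the start of the counted transcript. The members to print were those with the smallest adjusted p, LBR, STARD4, LSS and TM7SF2, and, chosen after the search, SREBF2. The RefSeq start of LBR lies 783 bases from that of the counted transcript, so its stretch is not shown. Each stretch runs 5′ to 3′ on the gene's strand from 180 to 51 bases before the RefSeq start site. Capitals mark matches on either strand to TCACNCCAC (a sterol regulatory element core), CCAAT (the NF-Y box), GGGCGG (the Sp1 box) and CACGTG (the E-box).

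STARD4, chr5:111512586-111512715, minus strand: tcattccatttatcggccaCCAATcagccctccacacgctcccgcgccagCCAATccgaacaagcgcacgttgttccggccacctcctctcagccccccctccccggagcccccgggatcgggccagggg
LSS, chr21:46228825-46228954, minus strand: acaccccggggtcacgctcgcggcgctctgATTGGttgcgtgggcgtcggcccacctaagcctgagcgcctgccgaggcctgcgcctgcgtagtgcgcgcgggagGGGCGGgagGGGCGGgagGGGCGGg
TM7SF2, chr11:65111692-65111821, plus strand: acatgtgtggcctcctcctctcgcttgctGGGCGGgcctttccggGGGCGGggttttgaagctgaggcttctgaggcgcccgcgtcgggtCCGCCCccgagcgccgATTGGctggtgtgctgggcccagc
SREBF2, chr22:41832925-41833054, plus strand: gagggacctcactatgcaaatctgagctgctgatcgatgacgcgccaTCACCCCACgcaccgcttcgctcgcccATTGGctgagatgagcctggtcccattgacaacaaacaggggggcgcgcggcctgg

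SREBF2 carries the element core from 133 to 125 bases before its start site, with an inverted NF-Y box (ATTGG) 106 to 102 bases before it. It was the 1 member of 29 with a match in the RefSeq window, which runs from 250 bases before to 50 bases after the start site, against 1.16% of the promoters of 11877 tested genes. NF-Y boxes were present in 17 of 29 members (58.6%) and in 36.28% of all these promoters. Members that fell held one in 8 of 13 cases, members not called in 8 of 12 and members that rose in 1 of 4. These counts include FADS2, IDI1, LBR and MVK, whose RefSeq starts lie 12097, 7585, 783 and 514 bases from those of the counted transcripts. FADS2, IDI1 and LBR fell and hold no NF-Y box in this window, and MVK, not called, holds one. The order of the groups therefore depends on these members, and it was not tested. Sp1 boxes occurred in 26 of 29 members against 68.42% of all promoters, and E-boxes in 5 of 29 against 9.84%. A match describes the letters in this window and no more.

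The first enzymes of the chain, up to mevalonate decarboxylation, showed no called change. ACAT2, the thiolase that joins acetyl-CoA units, stood at 148 and 139 CPM in control libraries against 145 and 138 CPM with the hairpin. HMGCS1, the synthase of the next step, held 98.7 and 99.7 CPM against 105 and 103 CPM. Its groups did not overlap, but the log2 fold change of 0.07 (SE 0.041) missed the threshold (edgeR, adjusted p = 0.268), with a 95% interval of -0.03 to 0.16.

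The kinases MVK and PMVK, which phosphorylate mevalonate, stood at -0.18 ± 0.10 and 0.00 ± 0.096, and the decarboxylase MVD at 0.07 ± 0.086; here and below, a value after ± beside a gene symbol is the standard error of the log2 fold change of shSMARCA4 over control. These 3 were expressed at 9.20 to 15.1 CPM, and the widths of their intervals (for PMVK -0.22 to 0.22) show what size of change these libraries could have missed. Exons of ACAT2 and MVK share bases with other genes in GENCODE 29, among them SOD2 and TCP1 for ACAT2 and MMAB for MVK, and the counting took reads of both strands, so their counts are uncertain.

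The isoprene-building enzymes after them fell. IDI1, the isomerase that makes the reactive isoprene unit, fell from 109 and 107 CPM to 89.5 and 86.5 CPM (-0.29 ± 0.043, adjusted p = 0.00113 by edgeR). FDPS, which builds farnesyl diphosphate for sterols and for protein prenylation, fell from 134 and 136 CPM to 118 CPM in both shSMARCA4 libraries (-0.19 ± 0.040, adjusted p = 0.00655). The 2 groups were clearly apart in both genes. The FDPS call was lost without either shSMARCA4 library (adjusted p = 0.0816 and 0.0692), at the same fold change. RUSC1-AS1, an antisense gene at 21.6 to 27.0 CPM, shares 42.3% of the exon bases of FDPS in GENCODE 29, so part of the FDPS count may belong to it.

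The enzymes that close the squalene chain into lanosterol moved in alternation. FDFT1 (squalene synthase), the first committed step to sterols, fell from 98.1 and 92.3 CPM to 79.2 and 78.2 CPM (-0.27 ± 0.047). SQLE (squalene epoxidase), a flux-controlling enzyme of the pathway, went the other way, from 352 and 319 CPM to 391 and 381 CPM (0.20 ± 0.051, adjusted p = 0.0163 by edgeR). LSS (lanosterol synthase; chromosome 21, 46189124 to 46228824, minus strand, hg38) fell again, from 46.0 and 44.1 CPM to 32.2 and 33.2 CPM (-0.46 ± 0.054, adjusted p = 3.40e-04).

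Per length (RPKM, which is CPM per kilobase of transcript), SQLE and FDPS were the most abundant members in control libraries, with SQLE at 120 and 109 RPKM and FDPS at 108 and 110.0 RPKM, so their order there lies within the spread. With the hairpin SQLE stood at 133 and 129 RPKM and FDPS at 95.4 and 95.1 RPKM. LSS ranked 23 of 33, at 10.6 and 10.1 RPKM against 7.41 and 7.63 RPKM. The RPKM ratio of SQLE to LSS was 11.3 and 10.7 in control libraries against 17.9 and 17.0 with the hairpin. The SQLE call was lost without shSMARCA4 replicate 1 (adjusted p = 0.0652) and when low counts were not filtered (0.0932); the direction stayed the same.

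**Figure D2:**
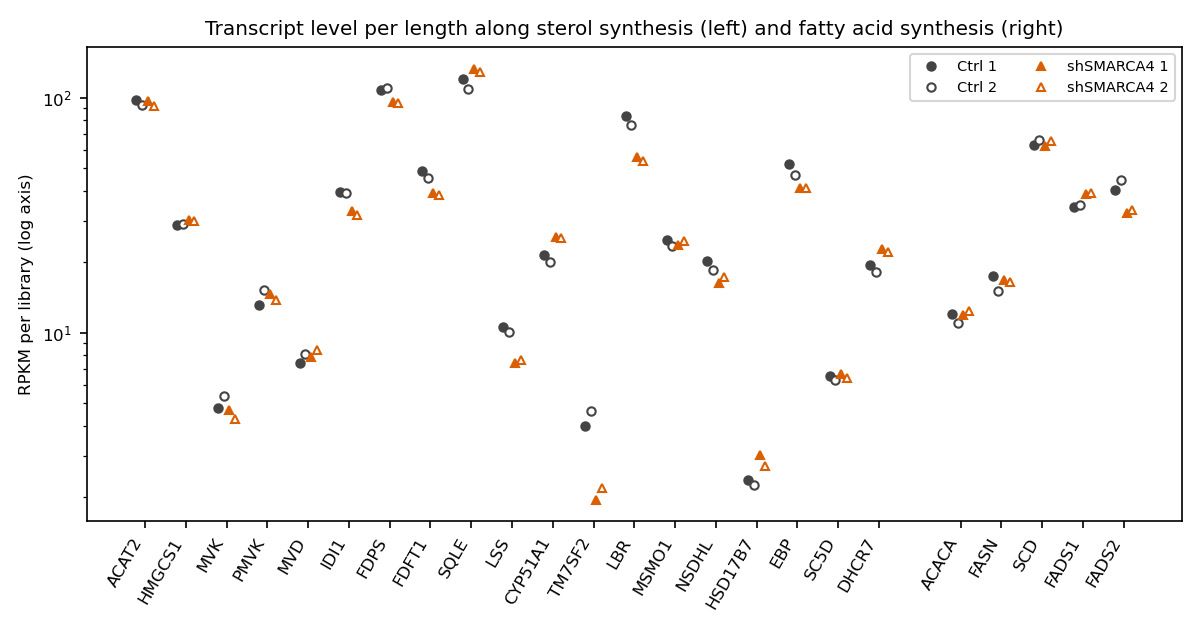
Transcript level per length (RPKM, log axis) in each library for the 19 sterol synthesis enzymes in pathway order and, on the right, 5 fatty acid enzymes; circles are controls and triangles shSMARCA4 libraries. Levels run from 1.95 RPKM (TM7SF2, shSMARCA4 replicate 1) to 133 RPKM (SQLE, same library), a range far wider than the shift between groups in any of these genes.

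The reduction that follows lanosterol demethylation is shared by TM7SF2 and LBR, sterol reductases that can each carry out the same step, and both fell. TM7SF2 (chromosome 11, 65111872 to 65116230, plus strand, hg38) went from 6.22 and 7.25 CPM to 3.04 and 3.41 CPM, a 2.09-fold lower level and the strongest change among the tested members (-1.06 ± 0.14, adjusted p = 6.76e-04 by edgeR). LBR (chromosome 1, 225401502 to 225428038, minus strand), which also anchors lamin B and heterochromatin at the inner nuclear membrane, went from 310 and 285 CPM to 207 and 199 CPM (-0.55 ± 0.050, adjusted p = 8.89e-05). In both genes every control library lay above every shSMARCA4 library. LBR was the dominant transcript of the pair: its RPKM was 20.9 and 16.5 times that of TM7SF2 in control libraries against 28.6 and 24.5 times with the hairpin. TM7SF2 rests on 204, 234, 88 and 94 reads.

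CYP51A1, the lanosterol demethylase just before that reduction, rose from 67.1 and 62.4 CPM to 79.9 and 79.2 CPM (0.30 ± 0.050, adjusted p = 0.00228). The demethylation complex after it was mixed. MSMO1, its oxidase, was level at 55.2 and 51.8 CPM against 52.5 and 54.2 CPM, with a 95% interval of -0.12 to 0.11 on the log2 scale. NSDHL, its dehydrogenase, went from 32.4 and 29.8 CPM to 26.1 and 28.0 CPM (-0.20 ± 0.067, adjusted p = 0.0487), a call lost under 9 of 13 alternatives. HSD17B7, its ketoreductase, stood at 5.98 and 5.67 CPM against 7.63 and 6.85 CPM (0.31 ± 0.12) and missed the threshold (adjusted p = 0.071 by edgeR). It passed with library totals alone, and without control replicate 1 its log2 change was 0.36. Its pseudogene HSD17B7P2 held 18 to 23 reads a library beside 183 to 221 reads of HSD17B7, which makes the exact split uncertain.

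The closing steps also diverged. EBP, the sterol isomerase, fell from 58.4 and 52.4 CPM to 46.1 and 46.0 CPM (-0.27 ± 0.060, adjusted p = 0.0101), whereas the desaturase SC5D after it stood at 44.6 and 43.1 CPM against 45.7 and 43.8 CPM, with overlapping groups. DHCR7, the last reductase before cholesterol, rose from 51.0 and 47.6 CPM to 59.7 and 57.8 CPM (0.25 ± 0.053, adjusted p = 0.0068). The calls of EBP and DHCR7 were lost when low counts were not filtered (adjusted p = 0.07 and 0.0506) and under no other alternative. Of the 19 synthesis enzymes, 8 fell, 3 rose and 8 did not pass the test. Their summed CPM was 1650 and 1560 in control libraries against 1530 and 1490 with the hairpin, a difference between groups of about the same size as that between the controls; it was not tested.

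**Figure D3:**
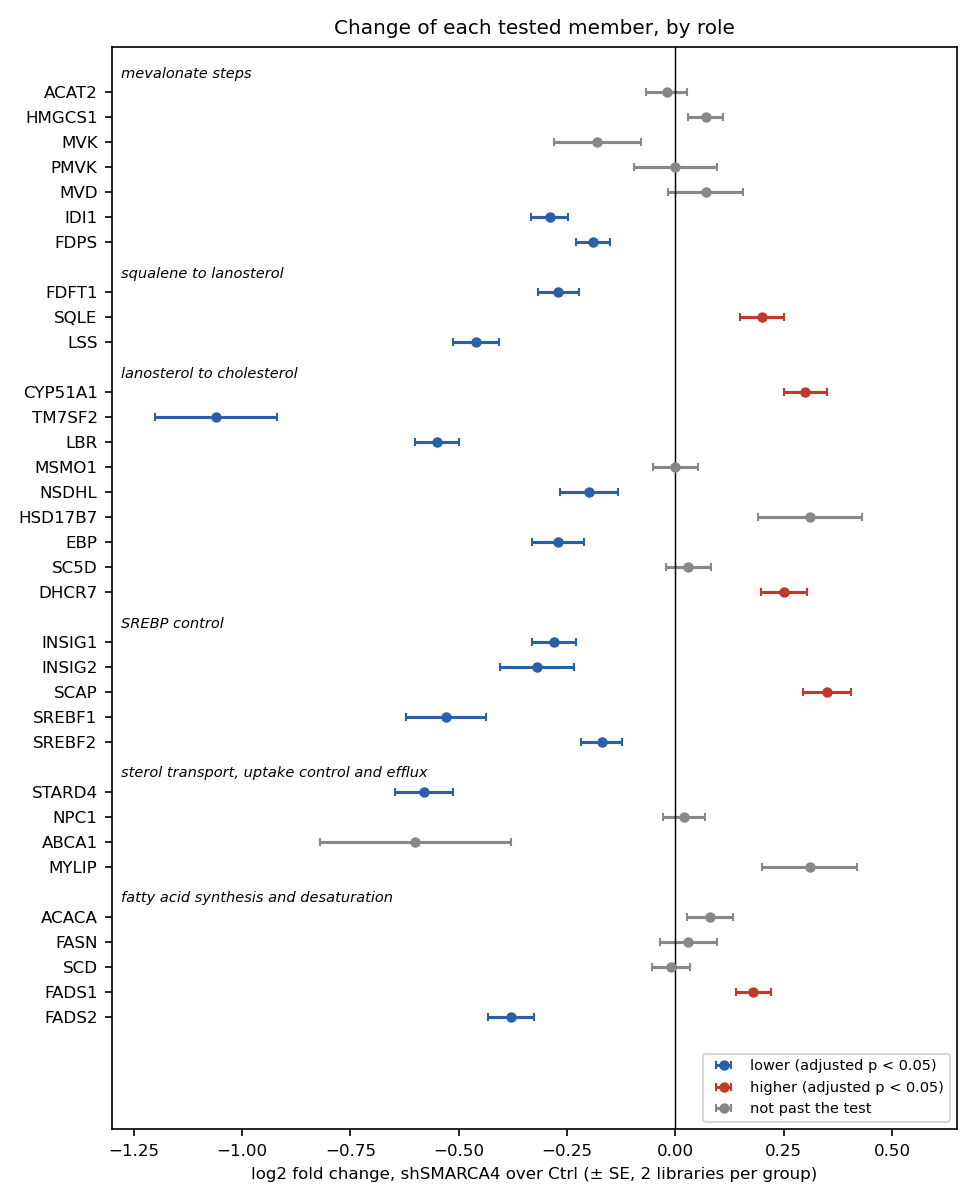
Log2 fold change of shSMARCA4 over control for each tested member (x axis), with bars of 1 standard error from 2 libraries per group, arranged by role; blue and red mark adjusted p under 0.05. Called falls and rises stand next to each other along the sterol chain, and SREBP control genes other than SCAP lie to the left of 0.

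All 5 genes of SREBP control passed the test, 4 of them lower. SREBF1 fell from 24.4 and 28.9 CPM to 17.7 and 19.2 CPM (-0.53 ± 0.092, adjusted p = 0.00267 by edgeR). SREBF2 fell by less, from 107 and 112 CPM to 94.6 and 101 CPM (-0.17 ± 0.048, adjusted p = 0.0291). SREBF2 was the more abundant of the pair per length in every library, at 20.6 and 21.6 RPKM against 5.01 and 5.94 RPKM of SREBF1 in the controls. The SREBF2 call is weak: it was lost with library totals alone (adjusted p = 0.0957), no filter (0.0976), DESeq2 (0.0967) and without shSMARCA4 replicate 1 (0.36), where the log2 change was -0.11.

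The retention factors INSIG1 and INSIG2 both fell, and the difference between their changes was not tested. INSIG1, itself a sensitive SREBP target, went from 59.0 and 58.1 CPM to 49.9 and 46.8 CPM (-0.28 ± 0.051, adjusted p = 0.00377). INSIG2, which does not depend on SREBP in the same way, went from 16.0 and 16.6 CPM to 12.5 and 13.8 CPM (-0.32 ± 0.085, adjusted p = 0.0208), a call that DESeq2, an unfiltered table and the fit without shSMARCA4 replicate 1 did not make. SCAP (chromosome 3, 47413681 to 47475941, minus strand, hg38), the escort they bind, rose from 30.5 and 30.8 CPM to 40.0 and 38.0 CPM (0.35 ± 0.056, adjusted p = 0.00172), and was the strongest rise among the called members. The call of SCAP held under all 13 alternatives.

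Among the tested members of sterol transport, uptake control and efflux, STARD4 was called lower and the rest did not pass the test. STARD4 (chromosome 5, 111496033 to 111512535, minus strand, hg38), a small cytosolic carrier that moves cholesterol between membranes and whose NF-Y boxes are shown above, fell from 78.8 and 82.3 CPM to 50 and 57.8 CPM (-0.58 ± 0.066, adjusted p = 3.10e-04). STARD4-AS1, on the opposite strand, shares 2.69% of its exon bases and held 157 to 165 CPM in all 4 libraries. STARD4 was the 1 tested member whose 3′ untranslated region in GENCODE 29 holds the 7-base run ATAGTGA. In 1348 tested genes with this run, 32.9% were called lower, and in 11336 without it 18.1%. The median log2 fold changes were close, at -0.06 with the run and 0.0 without it. No other run was counted, and the length of the region was not taken into account. The part of this run in the fall of STARD4 was not tested.

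NPC1, which exports cholesterol from lysosomes, was level at 67.6 and 71.7 CPM against 69.1 and 71.7 CPM. The exporter ABCA1 stood at 3.38 and 4.96 CPM in control libraries against 2.35 and 3.15 CPM with the hairpin. The groups did not overlap, yet the controls differed from each other by more than control 1 differed from shSMARCA4 replicate 2, and ABCA1, at -0.60 ± 0.22, missed the threshold (adjusted p = 0.0683). Its log2 change was -0.85 without control replicate 1 and -0.83 without shSMARCA4 replicate 2. Each of these fits takes its spread from the group with 2 libraries alone, so the first leaves out the difference between the controls. MYLIP, the ligase that marks lipoprotein receptors for degradation, stood at 7.41 and 8.49 CPM against 9.73 and 10 CPM (0.31 ± 0.11, adjusted p = 0.0531), just outside the threshold, and passed under 7 of 13 alternatives. Of the tested members named above as raised by LXR receptors, ABCA1 and SREBF1 had values below 0 and MYLIP a value above 0. Only SREBF1 among them was called.

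The core of fatty acid synthesis showed no called change. ACACA, the carboxylase that makes malonyl-CoA, stood at 119 and 109 CPM in control libraries against 117 and 123 CPM with the hairpin. FASN, the synthase, stood at 147 and 126 CPM against 141 and 137 CPM, so that its controls lay on both sides of the shSMARCA4 values. SCD, the desaturase that makes monounsaturated fatty acids, was among the most abundant members and level at 330 and 345 CPM against 326 and 343 CPM, with a 95% interval of -0.11 to 0.09. Without control replicate 1 the log2 change was 0.14 in both FASN and ACACA, in a fit whose spread comes from the shSMARCA4 libraries alone.

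The desaturases of polyunsaturated fatty acids, which lie side by side on chromosome 11, parted. FADS2 (61828300 to 61867354, plus strand), the first of them to act on essential fatty acids, fell from 125 and 137 CPM to 99.1 and 102 CPM (-0.38 ± 0.053, adjusted p = 8.46e-04). FADS1 (61799627 to 61817003, minus strand), which acts later, rose from 148 and 152 CPM to 169 and 171 CPM (0.18 ± 0.040, adjusted p = 0.00807). The RPKM ratio of FADS1 to FADS2 was 0.841 and 0.783 in control libraries against 1.21 and 1.19 with the hairpin. Per length the order of the pair was thus reversed, but by CPM FADS1 lay above FADS2 in every library. The order therefore depends on the transcript lengths used. The call of FADS1 was lost without either shSMARCA4 library (adjusted p = 0.0514 and 0.0944). Models of the neighbours overlap by 148 exon bases on opposite strands, 4.08% of those of FADS2.

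Other genes of the pathway were read from 6 lists with 103 genes, 97 of them tested. Of these 24 fell and 13 rose, with a median log2 fold change of -0.02; of all genes tested, 15.8% were lower and 13.8% higher, the shares against which each list's counts are to be read. In the list of SREBP processing and degradation, 3 of 14 fell and 3 rose. ERLIN2, a prohibitin-like protein of the endoplasmic reticulum that restrains SREBP activation, fell from 60.5 and 59.6 CPM to 33.2 and 29.6 CPM (-0.93 ± 0.061, adjusted p = 1.79e-05), while its partner ERLIN1 rose from 117 and 106 CPM to 141 and 137 CPM (0.32 ± 0.052). NPLOC4, an adaptor of the extraction machinery of the endoplasmic reticulum, fell (-0.35 ± 0.044).

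In the list of lipoprotein uptake and sterol traffic, 8 of 17 genes fell and 1 rose. The count that fell was 4 when low counts were not filtered. The count that rose was 2 with library totals alone, and it also changed when single libraries were left out. The receptor LRP1 (-0.34 ± 0.049) and the lysosomal sterol carrier NPC2 (-0.35 ± 0.050), the partner of NPC1, fell, as did the sterol transporter GRAMD1A (-0.51 ± 0.092). NPC2 went from 130 and 135 CPM to 100 and 108 CPM while NPC1 was level. In the list of LXR and oxysterol genes, 3 of 8 rose and 1 fell. These counts rest on single libraries and settings: without shSMARCA4 replicate 2, 1 rose and 2 fell, without control replicate 1, 3 rose and 2 fell, and the count that rose was 1 with DESeq2 and 0 when low counts were not filtered. The receptor NR1H2 rose (0.29 ± 0.075) and the transporter ABCA2 fell (-0.54 ± 0.11). CH25H, which makes an oxysterol that blocks SREBP processing, rose from 0.335 and 0.372 CPM to 0.656 and 1.05 CPM (1.25 ± 0.37, adjusted p = 0.0299), a low level in every library.

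In the list of fatty acid supply, elongation and activation, 9 of 24 fell and 3 rose. When low counts were not filtered, 6 fell and 1 rose. The count that rose also changed when control replicate 1 was left out. FADS3, the third gene of the desaturase cluster, fell from 82.4 and 80.1 CPM to 55.4 and 57.0 CPM (-0.53 ± 0.046, adjusted p = 7.14e-05). ME1, which supplies NADPH for fatty acid synthesis, fell from 117 and 119 CPM to 85.7 and 85.3 CPM (-0.46 ± 0.041), and ACSL4, which activates arachidonic acid, from 418 and 384 CPM to 281 and 278 CPM (-0.52 ± 0.047).

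**Figure D4:**
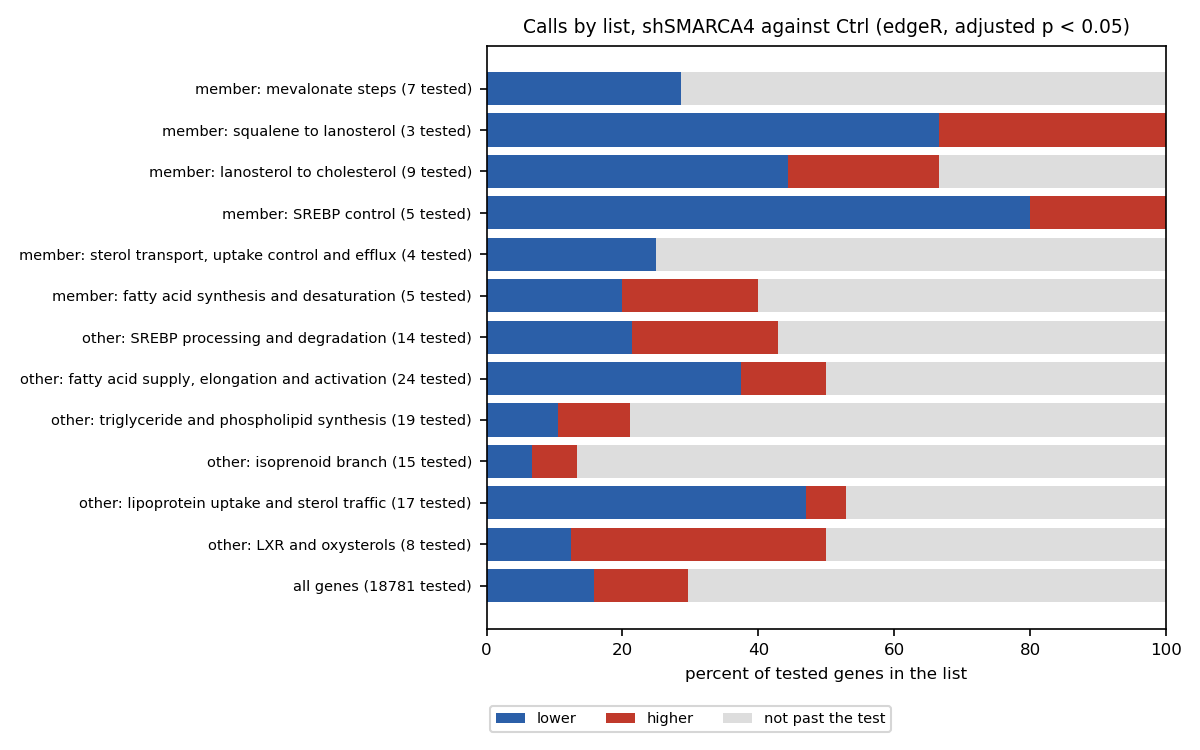
Share of tested genes called lower (blue), higher (red) or not past the test (grey) for each role of the members, each other list and all genes; the number tested stands beside each name. Most lists, and every role of the members, have blue shares above the 15.8% of all genes. Those below it are triglyceride and phospholipid synthesis (2 of 19), the isoprenoid branch (1 of 15) and LXR and oxysterols (1 of 8). SREBP control (4 of 5 lower, 1 higher) has the largest share. Among the other lists, lipoprotein uptake and sterol traffic (8 of 17 lower) has the largest. No difference between lists was tested.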

How the data were processed

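The authors deposited raw counts per gene. Per the file headers, HOMER's analyzeRepeats counted reads of both strands in exons (GENCODE 45), reduced each gene to 1 transcript and left counts unscaled; the build was hg38. STAR 2.6.1c and DESeq2 1.19.38 are named in the submitters' processing notes. The deposited length column was used for RPKM.

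Groups came from the sample titles. filterByExpr (count minimum 10) left 18781 genes. TMM factors were applied and the genes tested across all genes with edgeR 4.0.16 in R 4.3.3 (quasi-likelihood, two-sided, Benjamini-Hochberg over all genes tested, threshold 0.05). Log2 fold changes are shSMARCA4 over control; standard errors are the absolute change divided by the square root of F. CPM and RPKM use the scaled totals. The test was checked on simulated data with the same spread for all genes and planted changes larger than those of most members. That check does not cover the small changes reported here. With 2 libraries against 2, an exact permutation test cannot go below p = 0.33, so none was run. Chi-square per degree of freedom between replicates was 6.33 (control) and 1.88 (shSMARCA4), above sampling noise.

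Members and lists were chosen with earlier results of these data known, and no list was tested. All members are named, with up to 3 called genes of smallest adjusted p from each other list. Exon overlaps and the 7-base run were read from GENCODE 29, another release than that of the counts; of the members, 33 had their transcript in it. Alternatives were other scaling, other filters, DESeq2 1.42.0, limma-voom (limma 3.58.1), protein-coding genes only, a replicate block and leaving out each library.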

Additional observations from a re-analysis of the deposited data

How the results depend on the processing

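Over 13 alternatives, 11 of the 19 called members kept their call throughout, 9 of the 14 others were called in none, and no member's called change turned direction. The counts of 5 members higher and 14 lower became 3 higher with no filter on low counts, and lay between 3 and 8 higher when 1 library was left out; the count lower stayed within 1.5 times. The members' median of -0.02 lies so near 0 that scaling sets its sign: it was 0.03 with library totals, 0.00 with upper-quartile factors, -0.01 with no filter and -0.01 with protein-coding genes only, and -0.10 to -0.05 without 1 library. Over all genes, 2596 higher and 2976 lower became 1403 and 1784 with no filter and 1625 and 1930 with DESeq2, and the count higher lay between 1724 and 3618 without 1 library. The share of calls that were higher was 46.6% and became 59.5% with library totals, which moved the median of all genes to 0.04. Of the other pathway genes, 13 higher and 24 lower became 7 and 15 with no filter. The cause of these shifts was not tested.

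The titles number the replicates alike in both groups, but no source says what a number shares, and deviations of same-numbered libraries correlated at 0.0754 across genes. With the replicate block, 7 members were called higher and 15 lower (all genes 3187 and 3562), and ABCA1 (adjusted p = 0.0081 by edgeR), HSD17B7 (0.0432) and MYLIP (0.0267) passed.

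With 2 libraries per group, genes of low level such as ABCA1, MYLIP, HSD17B7, MVK, PMVK and TM7SF2 had standard errors of 0.096 to 0.22, against 0.040 for FDPS and FADS1.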

Other observations

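In the list of triglyceride and phospholipid synthesis, 2 of 19 tested genes rose and 2 fell, where 13.8% of all genes tested were higher and 15.8% lower. The count that fell was 5 without control replicate 1, 4 without control replicate 2 and 6 with the replicate block. GPAT3, which adds the first fatty acid to glycerol phosphate, rose from 7.10 and 6.45 CPM to 14.1 and 14 CPM (1.05 ± 0.096, adjusted p = 9.00e-05 by edgeR), AGPAT5 of the next step rose (0.33 ± 0.052), and PCYT1A, which controls phosphatidylcholine synthesis, fell (-0.24 ± 0.041). In the isoprenoid branch, which takes farnesyl diphosphate away from sterols, 1 of 15 rose and 1 fell. The count that rose was 0 without either shSMARCA4 library and with DESeq2, and 3 without control replicate 1; the count that fell was 2 without control replicate 2. GGPS1, which makes geranylgeranyl diphosphate, fell from 41.1 and 41.7 CPM to 33.6 and 34.1 CPM (-0.29 ± 0.052), and COQ2 of ubiquinone synthesis rose (0.24 ± 0.060).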
